A study of Mus musculus with 6 samples.

Results

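Calcium-binding proteins are the classical labels of retinal neurons, and the transcripts of 9 of them were examined in the retinas of adult mice that lack *Trim9*, which encodes a neuronal E3 ubiquitin ligase. The genes were *Calb1* (calbindin D-28K), *Calb2* (calretinin), *Pvalb* (parvalbumin), *Scgn* (secretagogin), *Cabp4* and *Cabp5* (calcium-binding proteins of the calmodulin type), *Vsnl1* (visinin-like 1), *Hpcal1* (hippocalcin-like 1) and *Ncald* (neurocalcin delta). They were chosen by name as a group, with earlier results of these data known. Every probe set whose annotation gave exactly 1 of these symbols was taken, which yielded 17 of the 45037 probe sets of the array. All 9 genes were represented, among 18193 genes named in this way. *Calb1* had 4 probe sets, *Ncald* 3, *Cabp4*, *Cabp5* and *Vsnl1* 2 each, and the other 4 genes 1 each. A probe set is a group of short oligonucleotides that together read 1 transcript.

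Retinas of 3 WT and 3 *Trim9* KO mice, which were adult littermates, were compared, with 1 Affymetrix mouse genome array per sample. In the KO mice exon 1 of *Trim9* had been excised by Cre recombinase through a cross with CMV-cre mice, a line that drives Cre broadly, so that the loss is not limited to one retinal cell type. The labels give neither strain, sex, exact age nor whether the WT mice carried the Cre transgene. Whole retina was used, so that fewer cells of a type and less RNA per cell cannot be told apart in any value below.

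These proteins bind calcium through EF-hand motifs, in which a short loop between 2 helices holds the ion. Calbindin, calretinin and parvalbumin bind calcium that enters a neuron and thereby limit how far and how long it spreads, whereas secretagogin, a relative of calbindin, is regarded as a calcium sensor. The others also change shape on binding calcium and pass the signal to a partner, such as a calcium channel in the case of CaBP4. In the mouse retina, antibodies to calbindin stain horizontal cells and some amacrine and ganglion cells, those to calretinin stain amacrine and ganglion cells, and those to secretagogin stain cone bipolar cells. CaBP4 lies in the synaptic terminals of rods and cones and CaBP5 in rod bipolar and some cone bipolar cells.

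Intensities are linear values as deposited, and fold changes are differences of mean log2(intensity + 16), *Trim9* KO over WT. Each array had been scaled by the authors to the same trimmed mean, but medians over probe sets ran from 218 to 808, and over all probe sets the fold changes had a median of 0.18 (log2). *Trim9* KO replicate 1 stood apart, with a mean Pearson's r of 0.50 with the other 5 arrays across probe sets, against 0.63 to 0.74 for the rest. The *Actb* control, whose ratio of 3' to 5' signal rises as RNA is degraded or shortened in labelling, read 20.2, 9.87 and 3.43 on WT replicates 1, 2 and 3 and 2.83, 94.5 and 90.5 on *Trim9* KO replicates 1, 2 and 3. The corresponding *Gapdh* ratio was 0.905 on WT replicate 3 and 82.0 to 310.1 on the others. *Xist* was high on WT replicate 3 and *Trim9* KO replicate 3 alone (log2 intensity 15.2 on each), so that sex was balanced between genotypes. The brightest *Trim9* probe set read 4226, 1767 and 1667 in WT and 1498, 497 and 367 in KO retinas (log2 fold change -1.81, standard error 0.99). Of its other 3 probe sets 1 also separated the genotypes (-2.48), whereas those at -0.77 and -0.58 overlapped, and the place of these probe sets relative to exon 1 is not known here.

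None of the 9 genes passed limma at an adjusted p of 0.05 (adjusted p = 0.999 for each, Benjamini-Hochberg over all probe sets), and none of their 17 probe sets had an unadjusted p under 0.05. Over all probe sets 0% passed the adjusted threshold and 2.88% had an unadjusted p under 0.05. By its brightest probe set, the mean of 6 of the 9 genes was lower in KO retinas and that of 3 was higher (66.7% lower, where 44.8% of all genes were lower, and 50.0% of the genes whose brightest probe set lay above the median of all probe sets, as all 9 did). The median log2 fold change of the 9 genes was -0.43. Genes whose brightest probe set lay above the median of all probe sets had a median of -0.00053. The median of the 9 genes was -0.13 without *Trim9* KO replicate 1, with 5 of 9 genes and 49.5% of all probe sets lower. It was -0.75 when array medians were made equal, with 8 of 9 genes and 55.0% of all probe sets lower, a scaling that moved the median of all probe sets from 0.18 to -0.14.

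**Figure D1:**
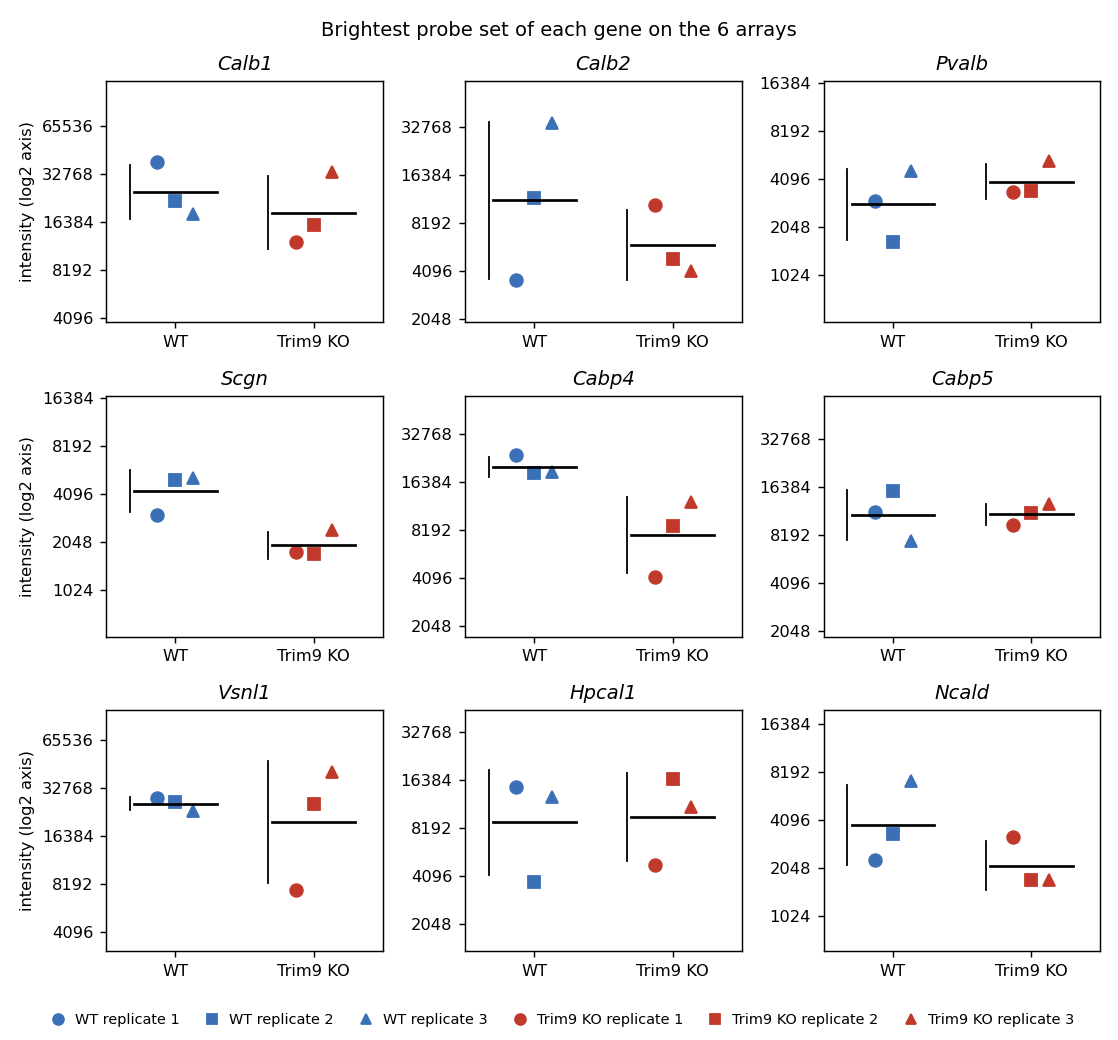
Intensity (y axis, log2 scale) of the brightest probe set of each gene in WT (blue) and Trim9 KO (red) retinas, with 1 point per array, its shape giving the replicate number; horizontal lines are means and vertical bars the SD, both taken on log2(intensity + 16). All panels span the same number of doublings, and the genotypes are separate only for Scgn and Cabp4.

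Among calbindin and its relatives, *Scgn* was the gene whose genotypes separated. Its probe set read 3040, 5043 and 5166 on WT replicates 1, 2 and 3, and 1776, 1719 and 2433 on *Trim9* KO replicates 1, 2 and 3. The highest KO array was thus below the lowest WT array. The log2 intensity was 12.07 ± 0.43 in WT and 10.94 ± 0.27 in KO retinas (mean ± SD, n = 3 each), which is a signal 2.19-fold higher in WT (log2 fold change -1.13, standard error 0.90, 95% interval -3.12 to 0.85). The two-sided exact permutation test gave p = 0.1, and with 3 arrays in each genotype no lower p can be reached. The SD within genotypes, 0.36, was lower than that of 98.4% of all probe sets, and limma, which draws each spread toward the typical 1.35, widened the interval accordingly. The log2 fold change of *Scgn* was -1.38 to -0.999 whichever array was left out. Among 10 measured bipolar cell markers, a list not limited to cone bipolar cells, means were lower for 6 and higher for 4 (median -0.23). *Gng13* was at 1.38 and *Otx2* at -1.63. Of the 10 markers 0 had separate genotypes, where 2.89% of all genes were lower and 5.35% higher on every KO array.

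*Calb2* read 3598, 11772 and 34993 in WT and 10703, 4874 and 4134 in KO retinas. The WT arrays alone spanned the range of the whole series, since the highest and the lowest value were both WT. The log2 fold change was -0.93 (standard error 1.08, exact permutation p = 0.6). It moved to -0.12 without WT replicate 3 and to -1.76 without WT replicate 1, so that each of these arrays weighed heavily on the value. The array with the highest *Calb2* signal, WT replicate 3, was the one with the lowest *Gapdh* 3' to 5' ratio (0.905), and the part of this in the result was not tested.

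*Calb1* is read by 4 probe sets. The brightest gave 39162, 22323 and 18361 in WT and 12361, 15764 and 33835 in KO retinas, and the genotypes overlapped, with *Trim9* KO replicate 3 second only to WT replicate 1. Its log2 fold change was -0.43 (standard error 0.95, exact permutation p = 0.5), which came to -0.11 when WT replicate 1 was left out and to -0.13 when *Trim9* KO replicate 1 was, but to -0.85 and -0.66 when *Trim9* KO replicate 3 or WT replicate 3 was. The other 3 probe sets had log2 fold changes of 0.17, 0.72 and 0.86, of the other sign, and the mean over all 4 probe sets gave 0.33 (standard error 0.72). The dimmest 2 of them, below the median of the whole array, spanned 14.4-fold and 55.7-fold over the arrays, against 3.17-fold for the brightest. Of 6 measured horizontal cell markers the means of 6 were lower (median -0.60), where 44.8% of all genes were. Their log2 fold changes ran from -1.83 to -0.032. Among them were *Lhx1* (-1.83) and *Onecut1* (-0.99), both transcription factors of these cells and both dim, below the median of all probe sets. None of the 6 had separate genotypes or an unadjusted p under 0.05. Across all genes 2.89% were lower and 5.35% higher on every KO array.

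*Pvalb* had the highest fold change of the 9 genes. It read 2967, 1643 and 4606 in WT and 3362, 3424 and 5267 in KO retinas, and WT replicate 3 lay above *Trim9* KO replicates 1 and 2. The log2 fold change of 0.47 (standard error 0.93, exact permutation p = 0.4) fell to 0.087 without WT replicate 2, the lowest of the 6 arrays, was 0.26 without *Trim9* KO replicate 3 and 0.83 without WT replicate 3, and was 0.15 when array medians were made equal. It was positive in every setting tried.

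Of the calmodulin-like genes, *Cabp4* had the lowest fold change among all 9. CaBP4 sets the voltage range of the calcium channel that drives transmitter release from photoreceptors. Its brightest probe set read 23974, 18660 and 18677 on WT replicates 1, 2 and 3, and 4117, 8621 and 12137 on *Trim9* KO replicates 1, 2 and 3. The WT arrays were close to each other and all KO arrays were lower, but spread over 2.95-fold. The log2 intensity was 14.31 ± 0.21 in WT and 12.89 ± 0.80 in KO retinas, a signal 2.68-fold higher in WT (log2 fold change -1.42, standard error 0.93, 95% interval -3.47 to 0.62, exact permutation p = 0.1). Leaving out *Trim9* KO replicate 1 brought it to -0.99, and leaving out *Trim9* KO replicate 3 to -1.77. Of 10 measured rod markers 9 had a lower mean (median -0.61) and of 10 cone markers 6 did (median -0.44), where 44.8% of all genes did. From either list 0 had separate genotypes, where 2.89% of all genes were lower and 5.35% higher on every KO array. The mean log2 intensity of the rod markers was 15.80, 16.17 and 16.36 on WT replicates 1, 2 and 3. It was 16.18, 15.29 and 15.26 on *Trim9* KO replicates 1, 2 and 3. For the cone markers it was 12.07, 11.82 and 12.56 on WT replicates 1, 2 and 3. On *Trim9* KO replicates 1, 2 and 3 the cone markers had 11.45, 11.80 and 11.83. The cone mean was thus lowest on the array with the lowest *Cabp4* signal, *Trim9* KO replicate 1, and the rod mean was not. The part of the rod or cone signal in the value of *Cabp4* was not tested.

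*Cabp5*, by contrast, had nearly equal means. Its brightest probe set read 11382, 15335 and 7474 in WT and 9387, 11179 and 12696 in KO retinas, and every KO array lay between the lowest and the highest WT array. The log2 fold change was 0.010 (standard error 0.91, 95% interval -1.98 to 2.0), an interval that still allows a signal 0.253 to 4.01 times that of WT. No other of the 9 genes varied less over the 6 arrays than *Cabp5*, whose highest value was 2.05 times the lowest.

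Both calmodulin-like genes have a dimmer probe set that behaved unlike the brightest. That of *Cabp4* read 6468 on WT replicate 3, whereas the other 5 arrays gave 97.7 to 222. That of *Cabp5* read 2992 on WT replicate 3, 524 on *Trim9* KO replicate 1 and 11 to 40.3 on the remaining arrays. WT replicate 3 and *Trim9* KO replicate 1 were the arrays with the lowest 3' to 5' ratios of *Actb* (3.43 and 2.83). The *Gapdh* ratio was 0.905 on WT replicate 3 but 134 on *Trim9* KO replicate 1, where the dimmer probe set of *Cabp4* read 125. Where these probe sets lie in the transcripts is not known here, and the part of RNA integrity in their signal was not tested. Their log2 fold changes of -1.90 and -1.22 (standard errors 1.40 and 1.70) rested on 1 WT array.

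**Figure D2:**
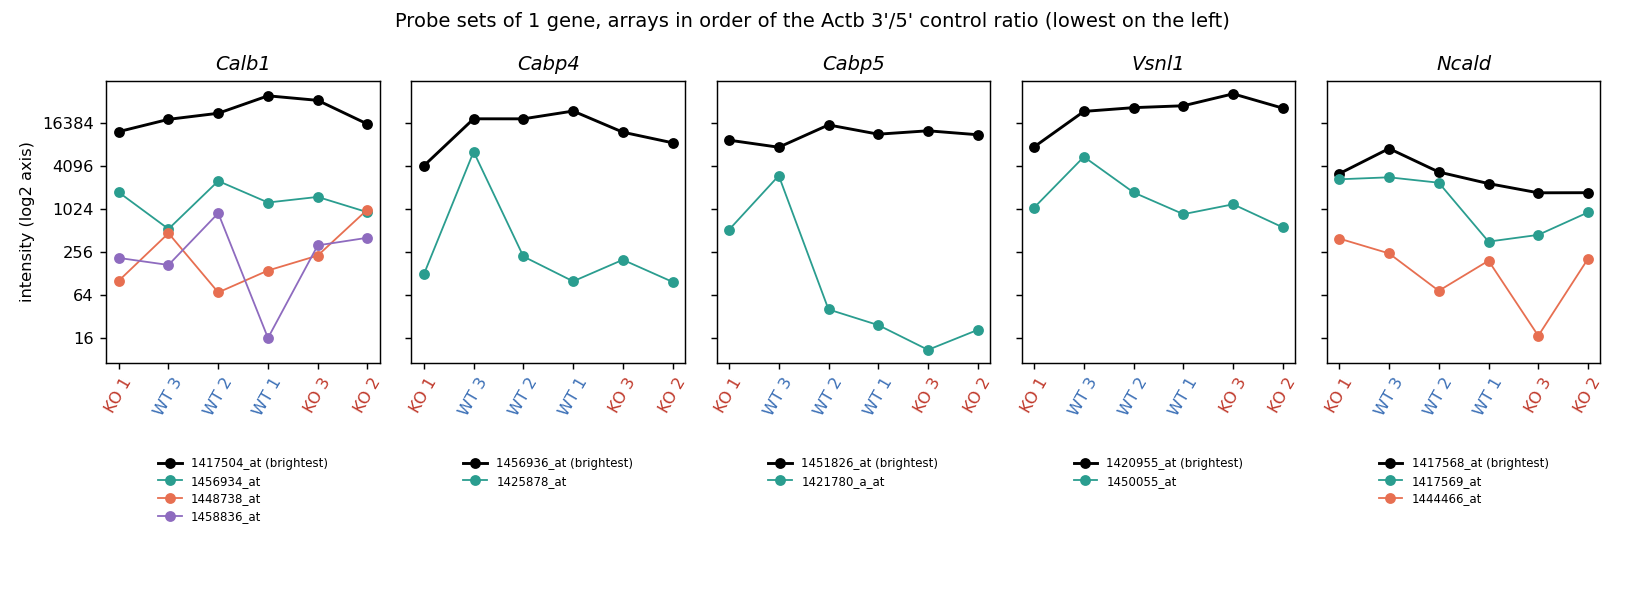
Intensity (y axis, log2 scale) of every probe set of the 5 genes with several, on the 6 arrays placed in order of their Actb 3' to 5' ratio from 2.83 on the left to 94.5 on the right (x axis; WT names blue, Trim9 KO names red). Black lines are the brightest probe sets, and the dimmer probe sets of Cabp4, Cabp5 and Vsnl1 peak on WT replicate 3.

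The neuronal calcium sensors form the last group, with *Vsnl1*, *Hpcal1* and *Ncald*, which are proteins that carry a lipid tail and move to membranes when they bind calcium. For *Vsnl1* the WT arrays agreed closely, at 28425, 26749 and 23710, whereas the KO arrays read 7566, 26296 and 41742. The lowest and the highest value of the series were thus both KO, and the log2 fold change was -0.37 (standard error 0.99, exact permutation p = 0.8). Without *Trim9* KO replicate 1 it changed sign, to 0.34. The dimmer probe set of *Vsnl1* read 866, 1741 and 5495 in WT and 1070, 566 and 1190 in KO retinas (log2 fold change -1.16, standard error 1.02), and was again highest on WT replicate 3.

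*Hpcal1* read 14770, 3747 and 12893 in WT and 4800, 16646 and 11187 in KO retinas. Each genotype held 1 low array, WT replicate 2 and *Trim9* KO replicate 1. The log2 fold change of 0.11 (standard error 1.01, exact permutation p = 0.9) took either sign as arrays were left out, from -0.52 without WT replicate 2 to 0.61 without *Trim9* KO replicate 1.

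*Ncald* read 2319, 3365 and 7167 in WT and 3193, 1729 and 1723 in KO retinas. Only *Trim9* KO replicate 1 reached the range of the WT arrays. The log2 fold change was -0.85 (standard error 0.95, exact permutation p = 0.2), and the other 2 probe sets gave -0.38 and -0.23. The value was -0.40 without WT replicate 3. *Ncald* and *Calb2* followed each other over the arrays, both highest on WT replicate 3, then on WT replicate 2 and *Trim9* KO replicate 1, and both lower on the 3 arrays with the highest *Actb* 3' to 5' ratios. The part of these ratios in either result was not tested.

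**Figure D3:**
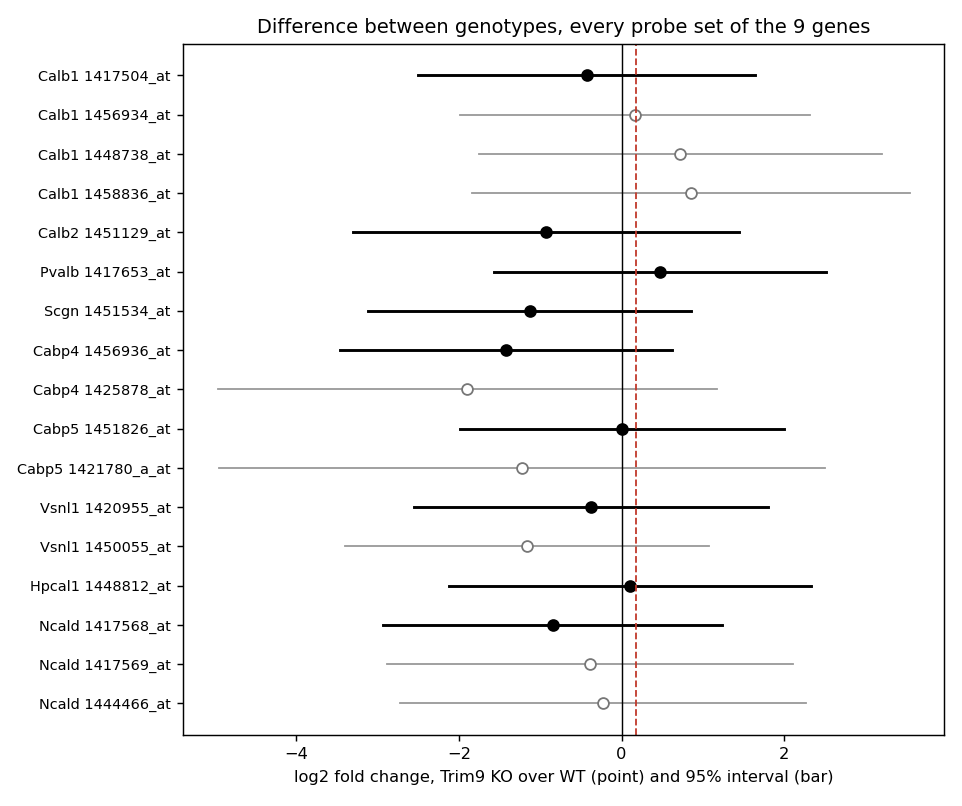
Log2 fold change, Trim9 KO over WT (x axis), of the 17 probe sets of the 9 genes (y axis), with 95% intervals from limma as bars; filled points are the brightest probe set of each gene, open points the others, and a dashed red line marks the median over the whole array (0.18). Every interval includes 0, and the brightest probe sets run from -1.42 for Cabp4 to 0.47 for Pvalb. Genes whose brightest probe set lay above the median of all probe sets had a median of -0.00053.

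Every KO array was below every WT array for 2 of the 9 genes, *Scgn* and *Cabp4* (22.2%), and above for 0. Across all genes the shares were 2.89% below and 5.35% above, and among genes whose brightest probe set lay above the median of all probe sets they were 3.42% and 4.50%. The 9 genes were chosen with earlier results of these data known, so the 22.2% is a description and no test. The same 2 genes were separate after quantile normalization (3.47% of all genes below and 5.4% above). When array medians were made equal neither was, and *Calb2* was the 1 member with separate genotypes, below in KO retinas (3.61% of all genes below and 3.66% above). The fold changes of *Scgn* and *Cabp4* stayed negative in these settings, at -1.26 and -1.50 after quantile normalization and at -1.45 and -1.75 with equal medians. Both genes were also lower in all settings in which an array was left out, as were *Calb1*, *Calb2* and *Ncald*.

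**Figure D4:**
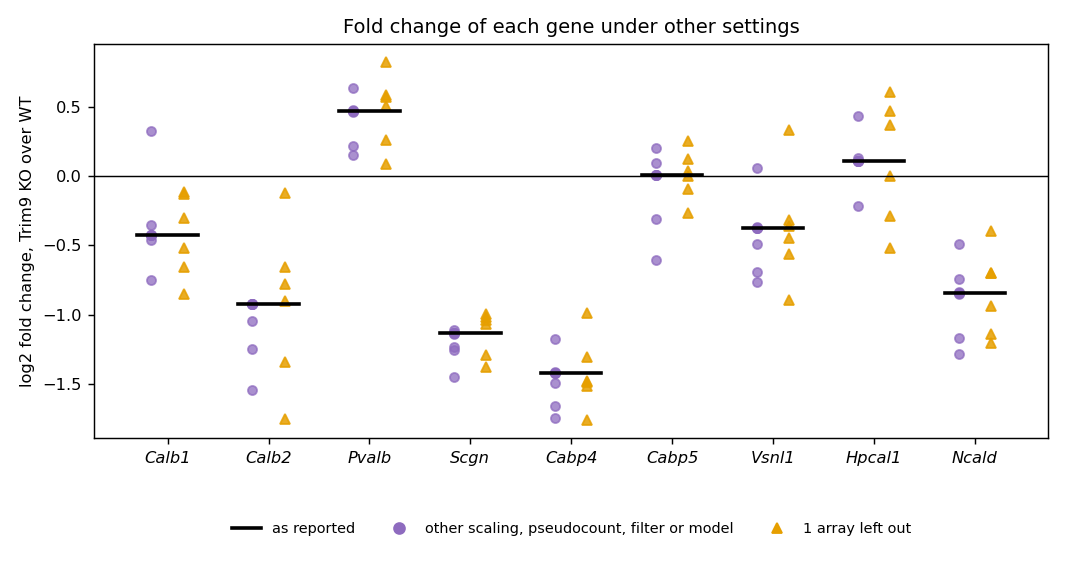
Log2 ratio of Trim9 KO to WT signal (y axis) for the brightest probe set of each gene (x axis) as reported (black line), under another scaling, pseudocount, filter, model or mean of probe sets (purple circles) and with 1 array left out (orange triangles). Calb2, Scgn, Cabp4 and Ncald lie below 0 and Pvalb above 0 throughout, whereas Calb1, Cabp5, Vsnl1 and Hpcal1 have points on both sides.

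By their brightest probe sets the 9 genes varied less within genotypes than most probe sets. Their SD was 0.36 to 1.27 (median 0.67), below the median of 1.35 over all probe sets for each of the 9. Genes whose brightest probe set lay above the median of all had a median SD of 1.05, and *Calb2* at 1.27 exceeded it. The other 8 probe sets of these genes had an SD of 0.85 to 2.97, highest for the dimmer one of *Cabp5*. The highest of the 6 arrays was WT replicate 3 for 7 of the 17 probe sets of these genes, where it was highest for 14.0% of all probe sets. *Trim9* KO replicate 1 was the highest array for 34.7% of all probe sets and for 1 of the 17. It was the lowest array for 3 of the 17, those of *Calb1*, *Cabp4* and *Vsnl1*, near its share of 17.5% over all probe sets. This array had the highest median over probe sets (808), and the brightest probe sets of all 9 genes lay above the median of all. No share among bright probe sets alone was taken for either array, so these counts are not read as a trait of the genes.

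Other EF-hand genes were taken from a list of 43, of which 37 were measured. It held further neuronal calcium sensors, the calmodulins, potassium channel interacting proteins, S100 proteins and calcium-binding proteins of organelles. In KO retinas the means of 20 were lower and those of 17 higher, for a median of -0.10 in log2 fold change, which turned to 0.10 without WT replicate 3. None passed the adjusted threshold and none had an unadjusted p under 0.05. The largest statistics were those of *S100a10*, a partner of annexin A2 (1.67, standard error 1.07), the potassium channel partner *Kcnip4* (-2.36, standard error 1.67), *Cib1* (-1.74, standard error 1.24) and *Cabp2*, a relative of *Cabp4* and *Cabp5* (-1.84, standard error 1.36). *Kcnip4* read 43.2 on *Trim9* KO replicate 1, whereas the rest gave 2229 to 13932. The 1 gene of this list whose genotypes were separate was *Cetn3*, a centrin, lower on every KO array (-1.26, standard error 0.93), named here after its values were seen. Of all genes 2.89% were lower on every KO array.

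Lists of the cells that the 9 proteins mark, or that a dissection may carry along, gave these medians. The 14 amacrine cell markers had 8 lower and 6 higher means (median -0.24). The largest statistics among them were those of *Slc18a3* (-2.80), with overlapping genotypes, and *Ptf1a* (2.30). Both were dim on some arrays, *Slc18a3* at 5.54 on *Trim9* KO replicate 3 and *Ptf1a* at 19.2 to 106 in WT retinas. *Ptf1a* was 1 of 3 markers with every KO array above every WT array, as were 5.35% of all genes. *Slc18a3* and *Ptf1a* had an unadjusted limma p under 0.05, as did 2.88% of all probe sets. The 11 ganglion cell markers had 4 lower and 7 higher means (median 0.20). Every KO array was lower for 1 of them, the neurofilament gene *Nefm* (-3.55), which had an unadjusted p under 0.05, and higher for 2, *Opn4* (2.08) among them. Over all genes the shares were 2.89% lower and 5.35% higher. Of 10 Müller glia markers 8 were lower (median -0.41), where 44.8% of all genes were. Markers of the retinal pigment epithelium were higher in 7 of 8 cases (median 0.78), with a mean log2 intensity of 10.457 to 10.733 on the WT arrays and 10.438 to 11.996 on the KO arrays, and 1 of them, *Rlbp1* (-1.22), is also in the Müller glia list. The 9 lens markers had a median of 0.35 and the 8 of microglia and blood 0.0054. Only 1 of these 9 and 3 of these 8 lay above the median of all probe sets, with readings down to 6.49 and 17.0. Both medians thus rest mostly on dim probe sets. No marker passed the adjusted threshold, and the part of other cells in the values of the 9 genes was not tested.

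The genes most like each of the 9 over the 6 arrays, among 12055 others with a brightest probe set above the median, were *Bbip1* and *Gmfb* for *Calb1*, *Kat5* and *Rabl6* for *Calb2*, *Ddx52* and *Rnf123* for *Pvalb*, *Gosr1* and *Ccndbp1* for *Scgn*, and *Ubfd1* and *Sf3a3* for *Cabp4*. They were *Gm29722* and *Fam136a* for *Cabp5*, *Afap1l1* and *Clmn* for *Vsnl1*, *Nelfe* and *Avpi1* for *Hpcal1*, and *Erdr1* and *Sbf1* for *Ncald*. Likeness was measured by Pearson's r of log2 intensity, from 0.959 for *Fam136a* to 0.999 for *Bbip1*, as a description with no test, over arrays that also differ in RNA integrity and scaling.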

How the data were processed

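RNA of 3 WT and 3 *Trim9* KO adult retinas was amplified, labelled with biotin and hybridized, 1 array per sample. The deposited intensity values are linear and were scaled by the authors to an equal mean on each array after the lowest and highest 2% of probe sets were left out. The submitters' processing notes name MAS5, without a version. The study's methods state RMA, which would give log2 values of equal distribution, and the values have the former's form. Scanner files and detection calls were not used here. A treatment label that speaks of embryos was not followed, since the labels give adult retina.

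After 64 control probe sets were left out, log2(intensity + 16) of 45037 probe sets was compared with limma 3.58.1 (lmFit and eBayes, R 4.3.3), without a filter or block, and p-values were adjusted by Benjamini-Hochberg with a threshold of 0.05. Probe sets were named from the platform annotation: 34945 named 1 gene, 932 several and 9160 none. The brightest probe set by its mean over 6 arrays stood for a gene, and intervals are limma's moderated 95% intervals. The members and lists were chosen with earlier results of these data known. Named genes were the 9 members, *Trim9*, the 4 other EF-hand genes with the largest statistic, up to 2 markers per cell type list, and the 2 genes most like each member. The lists come from general knowledge of these cells. Alternatives were quantile normalization, equal array medians, pseudocounts of 1 and 64, a filter on dim probe sets, a block for the replicate number, another variance prior, array weights, averaging the probe sets of a gene, and each array left out. The fit was tested on simulated data. The number of arrays limits the precision. Figures were drawn with Python 3.11.15 and matplotlib 3.10.9.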

Additional observations from a re-analysis of the deposited data

How the results depend on the processing

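Of the 9 genes, 5 (*Calb2*, *Pvalb*, *Scgn*, *Cabp4* and *Ncald*) kept the sign of their log2 fold change in all 15 other settings, and no setting brought a probe set of any gene past the adjusted threshold. The sign turned with equal array medians for *Cabp5* (-0.31) and *Hpcal1* (-0.21), with array weights for *Vsnl1* (0.060), and when the probe sets of a gene were averaged for *Calb1* (0.33) and *Cabp5* (-0.61). When 1 array was left out, values ran from -0.26 to 0.25 for *Cabp5*, from -0.89 to 0.34 for *Vsnl1* and from -0.52 to 0.61 for *Hpcal1*, and the median of the other EF-hand genes from -0.40 to 0.10. The cause was not tested. With the replicate number as a block no probe set passed limma (lowest adjusted p = 1.00), and *Cabp4* stayed at -1.42 (limma, adjusted p = 1.00). The replicate numbers are not said to mark pairs, so they were not taken as such. Deviations from the genotype means had r = -0.23, -0.081 and 0.033 between arrays of the same number. With 3 arrays per genotype that differ in RNA integrity and scaling, these values cannot decide whether the arrays are paired. *Xist* was high on replicate 3 of each genotype. The count of probe sets with an unadjusted p under 0.05 was 1296, against 3637 with array weights, 2556 without *Trim9* KO replicate 3 and 632 without dim probe sets. The median of all probe sets was 0.015 after quantile normalization and -0.14 with equal medians.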
